A study of Mustela putorius furo and Mus musculus with 4 samples.

Results

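A set of 9 genes of thyroid hormone transport, activation and action was followed in cultured ferret and mouse astrocytes. The genes were looked up by symbol without regard to case. They were the transporters Slco1c1 and Slc16a10, the binding proteins Crym and Ttr, the deiodinases Dio2 and Dio3, the receptors Thra and Thrb, and the target gene Klf9. All 9 had a value in the mouse libraries and 7 had a value in the ferret libraries. Ferret Dio2 and Dio3 were not analysed here. Of the 13373 gene symbols that both species share, 10204 had a mean of at least 1 FPKM in at least one species and were tested, and 6 of the 9 genes were among them.

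RNA was sequenced from 2 libraries of ferret astrocytes and 2 libraries of mouse astrocytes. The ferrets were sable animals taken on postnatal day 1, and the mice were ICR animals taken between postnatal days 1 and 3. In both species, cortical cells were grown as mixed glia for 14 days in medium with fetal bovine serum, shaken to remove loosely attached cells, and replated. Serum was withdrawn several days before RNA was harvested, and the supplements listed for the serum-free medium include sodium selenite and progesterone and name no thyroid hormone. Cells of a single ferret pup filled several flasks, whereas several mouse pups were pooled in a flask. Whether the duplicate libraries came from separate cultures is not stated, so the p-values measure the spread between these libraries, which may be technical.

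Thyroid hormone enters the brain mainly as thyroxine (T4), the prohormone, and astrocytes are a main site where it is made active. OATP1C1 (Slco1c1) carries T4 into the astrocyte, type 2 deiodinase (Dio2) removes an outer-ring iodine to give the active hormone T3, and T3 then binds nuclear receptors in astrocytes or leaves the cell to act on neurons and oligodendrocytes. Type 3 deiodinase (Dio3) inactivates both hormones. The receptors TRα (Thra) and TRβ (Thrb) sit on DNA as partners of retinoid X receptors and recruit corepressors without hormone and coactivators with it.

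Both deiodinases are selenoproteins, in which an in-frame TGA codon is read as selenocysteine at the catalytic site. The coding sequence around that codon is shown for the mouse genes because these are the enzymes that convert the hormone, and because it explains why the selenocysteine machinery is followed further on. In the stretches below, read 5′ to 3′ from the GENCODE M21 transcripts on GRCm38, capitals mark the selenocysteine codon. It is codon 130 of 266 in Dio2 (chr12:90729823-90729825, minus strand) and codon 170 of 304 in Dio3 (chr12:110279739-110279741, plus strand).
Dio2: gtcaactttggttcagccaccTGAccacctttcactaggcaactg
Dio3: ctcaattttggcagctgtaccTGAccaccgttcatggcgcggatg
Dio2 has a further annotated selenocysteine codon at position 263.

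Expression was given as FPKM, fragments normalized to exon length and to the number mapped, so levels of different genes can be compared within a library. FPKM holds no read counts. The study reports read counts as well, but they were not used here, so the absolute depth was not determined. From the steps between low values, replicate 1 was sequenced 1.17 times as deeply as replicate 2 in the ferret and 0.835 times as deeply in the mouse. Duplicates differed by a median of 0.081 (ferret) and 0.065 (mouse) on the log2(FPKM + 1) scale. Reads of each species were quantified on its own genome annotation, so species, gene model and culture cannot be told apart, and fewer cells of a type cannot be told apart from less RNA per cell. The astrocyte marker Gfap was among the high genes in both species, at 1481 and 1522 FPKM in the ferret and 1429 and 1546 FPKM in the mouse libraries. All 9 astrocyte markers looked up had values above 0 in the 4 libraries, but with FPKM as deposited 5 of them were called lower in the ferret (Aqp4, Aldh1l1, Vim, Gja1 and Slc1a3, with log2 differences from −3.09 to −1.16) and 1 higher (S100b, 2.01), by the rule given with the first comparison. Of all tested genes 30.1% were called lower and 13.1% higher, with a median difference of −0.35. The median difference of the astrocyte markers was −1.16, in the same direction as the differences of Slco1c1 and Thra. The part of these markers in the differences of the thyroid hormone genes was not tested.

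Mouse astrocytes had more RNA than ferret astrocytes for the T4 transporter, both receptors, Crym and Slc16a10, while the target gene Klf9 stood at nearly the same FPKM in both species. The largest difference was that of Slco1c1, with a mean 16.7 times as high in the mouse, followed on the log2(FPKM + 1) scale by Thra, with a mean 6.35 times as high. Of the 6 genes tested, 5 were called lower in ferret astrocytes and 0 higher, with a log2 difference larger than 1 in size and a p under 0.05 after Benjamini-Hochberg adjustment over all 10204 genes (limma). By that rule 30.1% of all tested genes were lower and 13.1% were higher in ferret astrocytes, 43.2% in all. The higher ones made up 30.3% of these calls, and between 46.4% and 50.0% under the 3 other scalings. The adjusted p alone was passed by 88.6% of all tested genes, so that the size of a difference says more than its p. Slc16a10 entered the test through its mouse value alone. All tested genes had a median difference of −0.35, ferret minus mouse, which moved to −0.01 once library sums had been made equal.

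**Figure D1:**
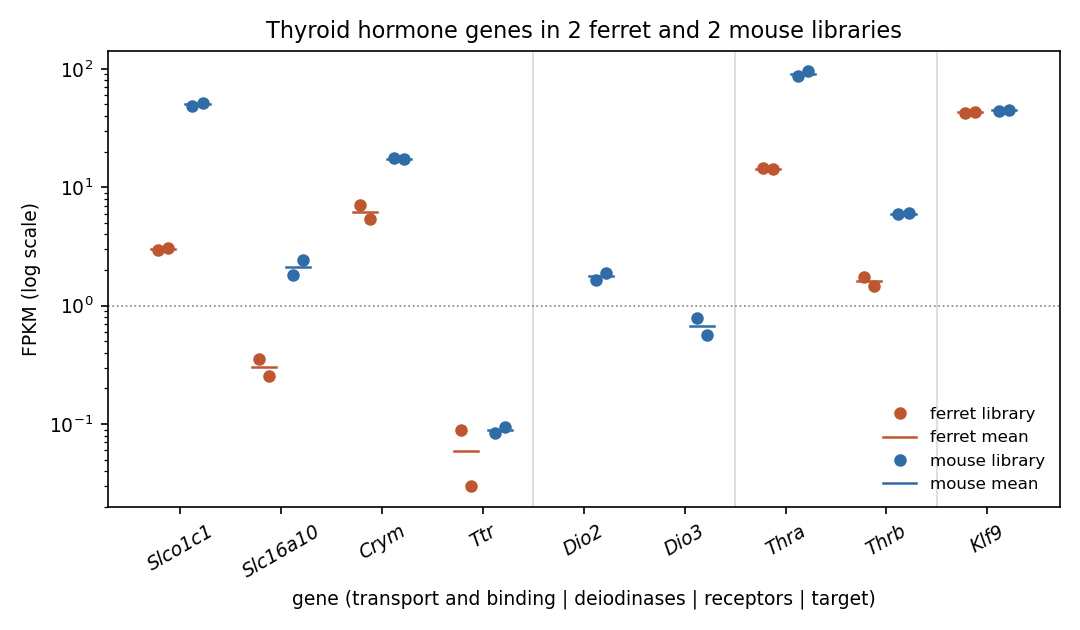
FPKM (log axis) of the 9 thyroid hormone genes, with 1 point per library, a bar at the mean of the 2 libraries of a species, and a dotted line at 1 FPKM. Slco1c1, Slc16a10, Crym, Thra and Thrb lie lower in both ferret libraries than in both mouse libraries, Klf9 lies near 43 to 45 FPKM in all 4, and Dio2 and Dio3 are shown for the mouse only.

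Slco1c1 stood at 2.94 and 3.05 FPKM in ferret replicates 1 and 2 and at 48.8 and 51.4 FPKM in the mouse libraries. The libraries of each species lay close together and the groups did not overlap. The log2 difference was −3.68 ± 0.066 (SE, limma adjusted p = 4.61e-11), and 1.89% of all tested genes had a difference further towards the mouse. Relative to the median of all tested genes the difference was −3.33. The mouse gene lies at chr6:141524368-141570177 (GRCm38, plus strand), with 14 exonic regions.

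OATP1C1 is also known from the endothelium of brain capillaries in rodents, and endothelial RNA was therefore looked up beside it. Of 7 endothelial markers, the summed FPKM was 0.458 to 0.597 in the ferret and 25.2 to 25.7 in the mouse libraries. The 2 that could be tested, Cdh5 and Tek, entered the test through their mouse values alone. Most of the mouse sum was Cdh5, VE-cadherin, at 22.0 and 22.5 FPKM and listed at 0 in both ferret libraries. Tek was listed at 0 in both ferret libraries too, against 1.34 FPKM in each mouse library. Kdr stood at 0.23 and 0.21 FPKM in the ferret against 0.95 and 1.03 FPKM in the mouse. Flt1 stood at 0.28 and 0.23 FPKM against 0.89 and 0.80 FPKM. Tie1, at most 0.028 FPKM in any library, went the other way. The tight junction gene Cldn5 was listed at 0 in both mouse libraries and Pecam1 stood at 0.041 and 0.031 FPKM there. The part of endothelial RNA in the Slco1c1 difference was not tested.

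The genes whose values over the 4 libraries lay nearest to those of Slco1c1, by Euclidean distance on the log2(FPKM + 1) scale, were Cdon at a distance of 0.21, Tmem132b at 0.21 and Camk1 at 0.22. Cdon, a cell surface receptor, had 3.12 and 3.23 FPKM in the ferret and 45.1 and 46.2 FPKM in the mouse libraries. With 4 libraries in 2 groups, the distance measures little more than the level in each species.

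Slc16a10 encodes MCT10, a transporter of aromatic amino acids that also carries T3. It stood at 0.356 and 0.254 FPKM in ferret replicates 1 and 2 and at 1.82 and 2.45 FPKM in the mouse libraries, so that both ferret values were under both mouse values. The log2 difference was −1.26 ± 0.104 (SE, limma adjusted p = 1.39e-06). At such levels the difference depends on the pseudocount, and with 0.1 in place of 1 it was −2.46. With quantile normalization it was −0.96, under the size required for a call.

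Crym encodes µ-crystallin, a cytosolic protein that binds T3. Its FPKM was 7.06 and 5.41 in ferret replicates 1 and 2, and 17.6 and 17.3 in the mouse libraries. The ferret libraries were the more variable, but both were under both mouse libraries, and the log2 difference was −1.36 ± 0.101 (SE, limma adjusted p = 6.16e-07). This difference stood near the required size once the shift of all genes was removed. It was −1.01 with each library rescaled to their mean sum and −0.95 with quantile normalization, which ended the call.

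Ttr, transthyretin, is the T4 carrier that the choroid plexus secretes into cerebrospinal fluid. It was at the bottom of the range in every library, with 0.089 and 0.030 FPKM in the ferret and 0.085 and 0.094 FPKM in the mouse libraries. It was under the limit of 1 FPKM and was tested in the fit without that limit alone, where the log2 difference was −0.04 (95% interval −0.14 to 0.06, limma adjusted p = 0.343). The 7 other choroid plexus markers summed to 12.6 to 15.0 FPKM in the ferret and 5.93 FPKM in the mouse libraries. Of the 4 tested, 1 entered through its mouse value alone (Folr1) and 2 through their ferret values alone (Kcne2 and Kcnj13). Among the 7, Sostdc1 was the highest in the ferret at 11.8 and 9.28 FPKM. Kl and Clic6 were under 0.1 FPKM in all 4 libraries, and Folr1 was listed at 0 in both ferret libraries against 3.80 and 3.56 FPKM in the mouse.

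The deiodinases were measured in the mouse alone. Dio2 stood at 1.66 and 1.88 FPKM and Dio3 at 0.791 and 0.568 FPKM. Dio2 was above Dio3 in both libraries, 2.09 times in replicate 1 and 3.31 times in replicate 2. The spread of that ratio came mostly from Dio3, whose values differed by 1.39 times between duplicates against 1.14 times for Dio2. Dio1, the type 1 enzyme of liver, kidney and thyroid, was at 0.019 and 0.094 FPKM. Mouse Dio2 lies at chr12:90724552-90738438 (minus strand), and its exons share 100 bases with a noncoding RNA, Gm26512, transcribed from the opposite strand. Dio3 lies at chr12:110279068-110281097 (plus strand), within a single exonic region.

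Thra was the more abundant receptor gene in all 4 libraries. Thra stood at 14.4 and 14.1 FPKM in the ferret and at 86.4 and 94.8 FPKM in mouse replicates 1 and 2, with a log2 difference of −2.58 ± 0.065 (SE, limma adjusted p = 3.01e-10). Relative to the median of all tested genes this was −2.23, and 5.81% of those genes lay further towards the mouse. Thrb stood at 1.74 and 1.46 FPKM in the ferret and at 5.90 and 6.08 FPKM in mouse replicates 1 and 2, with a log2 difference of −1.43 ± 0.082 (SE, limma adjusted p = 8.82e-08). For both receptors the libraries of the species did not overlap.

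The ratio of the receptors within a library does not depend on how the libraries are scaled to each other, except through the pseudocount. Thra exceeded Thrb by 8.28 and 9.66 times in ferret replicates 1 and 2, and by 14.7 and 15.6 times in the mouse libraries. On the log2(FPKM + 1) scale the mean ratio of the 2 ferret replicates was 2.56 with an SD of 0.091, and that of the 2 mouse replicates was 3.71 with an SD of 0.067. The difference of −1.16 was larger than the spread between duplicates, with an exact permutation test giving a two-sided p of 0.333, the smallest that 2 libraries against 2 allow.

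Mouse Thra lies at chr11:98740638-98769006 (plus strand) and Thrb at chr14:17660261-18038090 (plus strand). FPKM is summed per gene. It therefore does not separate TRα1, which binds T3, from the variant TRα2, which does not. The 3′ end of Thra runs into that of Nr1d1, the gene of the circadian repressor REV-ERBα on the opposite strand. In GENCODE M21 their exons share 263 bases, chr11:98768157-98768419, and 2 of the 9 annotated Thra transcripts reach this stretch. The FPKM were quantified on Ensembl annotation, whose transcript models may differ. Nr1d1 stood at 3.96 and 4.29 FPKM in the ferret and at 24.1 and 25.0 FPKM in mouse replicates 1 and 2, with a log2 difference of −2.32 (limma adjusted p = 9.00e-10). The library kit keeps strand, but whether the quantification used it is not stated, so reads of the shared stretch may count for either gene. The part of such reads in the Thra difference was not tested.

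Klf9 encodes a zinc finger transcription factor whose gene T3 induces directly through its receptors, and which glucocorticoids induce as well. Its FPKM was 42.5 and 43.3 in ferret replicates 1 and 2, and 44.0 and 44.9 in the mouse libraries. Both mouse values were slightly above both ferret values with FPKM as deposited, an order that 3 other scalings turned. The log2 difference was −0.05 (95% interval −0.18 to 0.08, limma adjusted p = 0.425). With each library rescaled to their mean sum the direction turned, to 0.33 (limma adjusted p = 2.62e-04), and it turned likewise with quantile normalization (0.33) and with a sum of 1000000 (0.34). All of these values are under the size required for a call. The mouse gene lies at chr19:23141226-23168134 (plus strand).

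The order of the genes within a library differed between the species. In ferret astrocytes Klf9 was the highest of the 7 genes with a ferret value, followed by Thra, Crym, Slco1c1, Thrb, Slc16a10 and Ttr, and each gene was above the next in both libraries. In mouse astrocytes the order was Thra, Slco1c1, Klf9, Crym, Thrb, Slc16a10, Dio2, Dio3 and Ttr. Slc16a10 and Dio2 overlapped there, and the other neighbours did not. Klf9 exceeded Thra by 2.95 and 3.06 times in the ferret libraries, whereas Thra exceeded Klf9 by 1.97 and 2.11 times in the mouse libraries. Klf9 likewise exceeded Slco1c1 by 14.5 and 14.2 times in the ferret libraries, against 0.901 and 0.875 times in the mouse libraries. These ratios are taken within a library and do not change with its scaling.

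**Figure D2:**
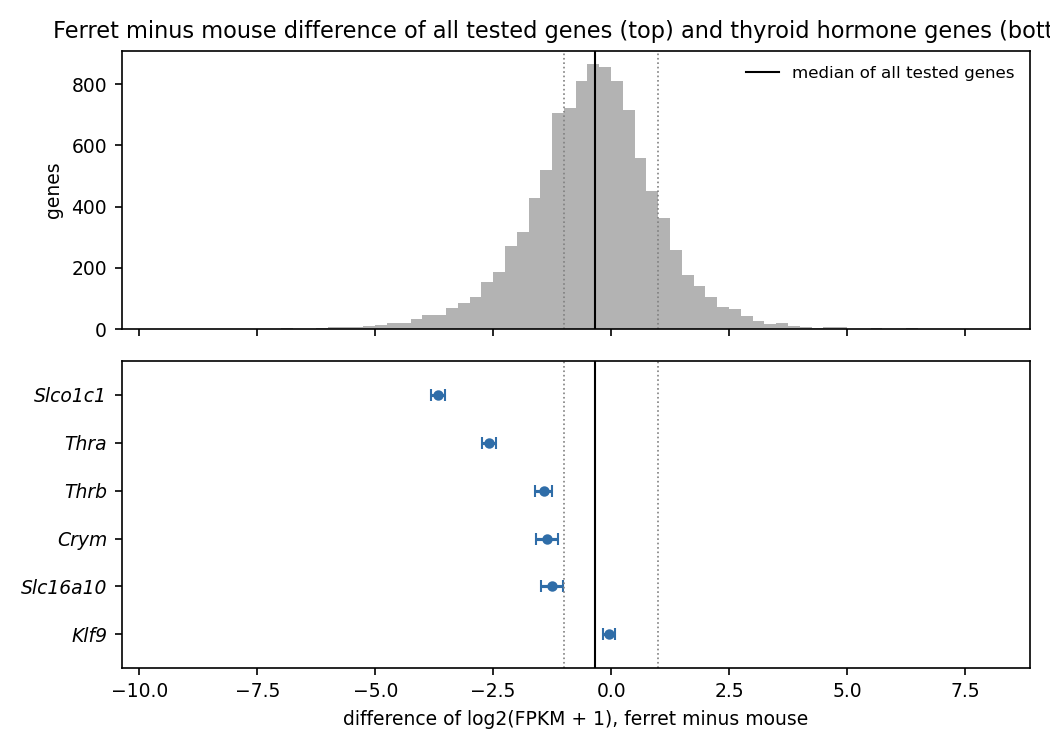
Top, histogram of the difference of log2(FPKM + 1), ferret minus mouse, over the 10204 tested genes, with a line at their median of −0.35 and dotted lines at −1 and 1. Bottom, the same difference for the 6 thyroid hormone genes tested, with 95% intervals from limma. Slco1c1 at −3.68 and Thra at −2.58 lie in the left tail, Thrb, Crym and Slc16a10 between −1.26 and −1.43, and Klf9 at −0.05 with FPKM as deposited, a direction that turned after rescaling.

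**Figure D3:**
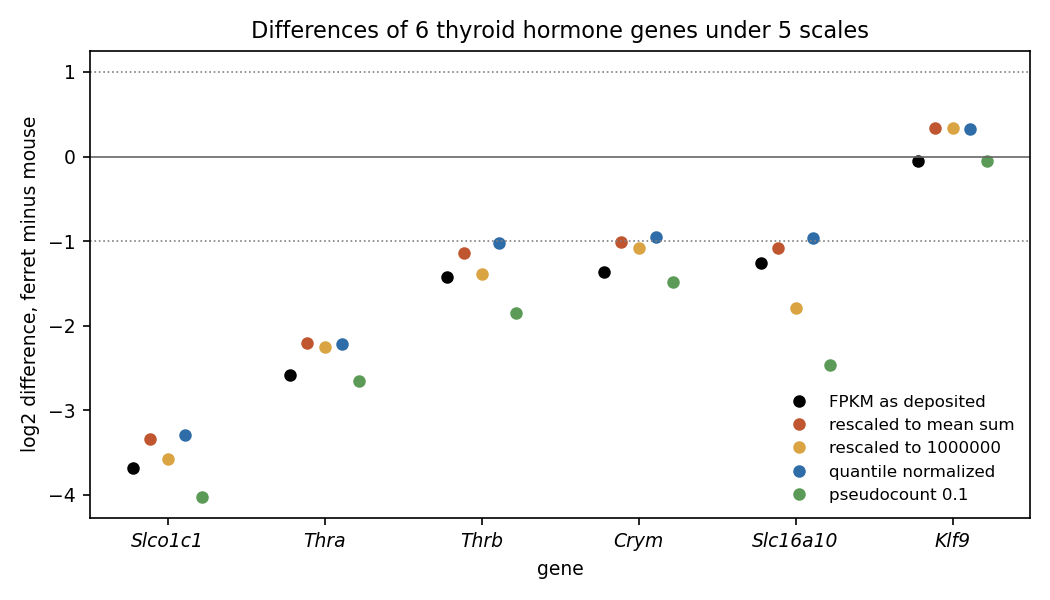
Log2 difference, ferret minus mouse, of the 6 tested thyroid hormone genes with FPKM as deposited, 3 other scalings and a pseudocount of 0.1, with dotted lines at −1 and 1. Slco1c1 stays between −4.02 and −3.29 and Thra between −2.66 and −2.21, Crym and Slc16a10 reach −0.95 and −0.96 with quantile normalization, and Klf9 moves from −0.05 to between 0.33 and 0.34 with the 3 scalings.

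Other carriers of thyroid hormone that could be tested were lower in ferret astrocytes too. Of 6 further transporter genes, 5 had values in both species and 4 were tested, and all 4 were called lower in the ferret under every scaling tried, as were 30.1% of all tested genes with FPKM as deposited. The list's median log2 difference was −2.29, against −0.35 for all tested genes, and 2 of the 4 entered the test through their mouse values alone.

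These transporters carry other substrates as well as thyroid hormone. Slco3a1, an organic anion transporter, stood at 1.79 and 1.73 FPKM in the ferret and 22.9 and 25.1 FPKM in the mouse libraries (log2 difference −3.18). Slc7a8, the LAT2 amino acid transporter, stood at 0.903 and 0.781 FPKM against 11.2 and 11.1 FPKM (−2.72). Slc3a2, the heavy chain that LAT1 and LAT2 need at the membrane, stood at 59.5 and 67.3 FPKM against 224 and 239 FPKM (−1.86). Slco4a1 stood at 0.755 and 0.587 FPKM against 4.46 and 4.23 FPKM (−1.68). The 2 that entered through the mouse were Slc7a8 and Slco4a1. The LAT1 gene Slc7a5 stood at 43.8 and 46.7 FPKM in the ferret replicates, and its mouse value was not analysed here.

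A list of deiodinase partners and other genes of thyroid hormone metabolism held 11 genes, of which 8 had values in both species and 7 were tested. In the ferret 2 were called lower and 1 higher, close to the background of 30.1% lower and 13.1% higher over all tested genes. Sephs2, which makes the selenium donor for selenocysteine, was higher in the ferret, at 24.7 and 28.1 FPKM against 11.4 and 11.0 FPKM (log2 difference 1.16, limma adjusted p = 1.99e-07). Pstk, the kinase that prepares the selenocysteine tRNA, was lower, at 5.10 and 5.44 FPKM against 17.3 and 14.7 FPKM (−1.43, limma adjusted p = 1.26e-07). Wsb1, a ubiquitin ligase subunit that targets type 2 deiodinase, stood at 20.7 and 19.2 FPKM against 50.3 and 42.4 FPKM (−1.17). Its call was lost under all 3 other scalings, with −0.79 for each library rescaled to their mean sum. With a pseudocount of 0.1, Usp33, which removes ubiquitin from type 2 deiodinase, joined the genes called lower (−1.05). Its log2 difference was −1.09 without ferret replicate 1, against −0.97 with all libraries and a pseudocount of 1.

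Of 15 receptor partners and coregulators 11 were tested, with 1 called lower and 1 higher in the ferret, against 30.1% and 13.1% of all tested genes. Their log2 differences ran from −1.46 to 1.87, with a median of −0.10. The corepressor Ncor1 was lower, at 15.0 and 15.6 FPKM in the ferret against 41.5 and 46.6 FPKM in the mouse libraries (−1.46, limma adjusted p = 2.45e-08). Rxrg, the retinoid X receptor γ gene, was higher, at 3.76 and 3.93 FPKM against 0.278 and 0.373 FPKM (1.87, limma adjusted p = 9.49e-09), and entered the test through its ferret value alone. The other partners Rxra and Rxrb had log2 differences of −0.22 and −0.81. Without mouse replicate 2, Tbl1xr1 was called lower as well (−1.06), and the coactivator Crebbp was called higher with a sum of 1000000 (1.06) and with quantile normalization (1.04).

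Other genes known to respond to T3 in brain or liver also went both ways. Of 9 such genes 6 were tested, with 4 called higher and 1 lower in the ferret, against 13.1% and 30.1% of all tested genes, and their median log2 difference was 1.35. Hr, a nuclear corepressor gene that T3 induces in brain, was higher in the ferret, at 33.2 and 35.3 FPKM against 11.7 and 12.4 FPKM (1.43, limma adjusted p = 1.60e-08). Thrsp, a lipogenic gene strongly induced by T3 in liver, was listed at 0 in one ferret library and stood at 0.113 FPKM in the other, against 16.8 and 18.5 FPKM in the mouse libraries. Reln, the gene of the secreted protein reelin, stood at 2.03 and 2.15 FPKM in ferret replicates 1 and 2, and was listed at 0 in both mouse libraries. Thrsp, Reln and Nrgn entered the test through one species alone.

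Some members of that list depended on a library or moved with markers of another cell type. Nrgn had 1.16 and 4.75 FPKM in the ferret and 0.383 and 0.529 FPKM in the mouse libraries, and its call (log2 difference 1.28) was lost without ferret replicate 2 (0.57) and without either mouse library (1.21, adjusted p = 0.102 without replicate 1, and 1.35, adjusted p = 0.0762 without replicate 2, by limma), as well as without the limit of 1 FPKM (1.28, adjusted p = 0.127). Mbp, a myelin gene, had 28.5 and 33.1 FPKM in the ferret and 2.95 and 1.78 FPKM in the mouse libraries (3.26, limma adjusted p = 1.29e-08). Some oligodendrocyte lineage markers moved with it, whereas Olig2 had 4.92 and 5.18 FPKM in the ferret and 9.62 and 9.80 FPKM in the mouse libraries. Of 7 such markers 5 were tested, with 1 called higher and 0 lower, against 13.1% and 30.1% of all tested genes. The 1 called higher was Sox10, which entered through its ferret value alone. Under the other scalings 2 to 3 were called higher, as were 1954 to 2197 of all 10204 tested genes. The summed FPKM of the 6 with values in both species was 113 to 131 in the ferret and 57.9 to 59.7 in the mouse libraries. Cnp made up most of both sums, at 79.9 and 92.0 FPKM in the ferret against 45.6 and 47.7 FPKM. Cspg4, like Olig2, was lower in the ferret, at 1.04 and 1.16 FPKM against 2.00 and 1.81 FPKM. Olig1 is outside these sums, since its ferret value was not analysed here. Its mouse level alone was 107 and 117 FPKM, so the sums do not show which species was higher over the full list. The part of oligodendrocyte lineage RNA in the Mbp difference was not tested. Me1, malic enzyme, had 118 and 116 FPKM against 65.2 and 68.6 FPKM (0.80), and was called higher under each of the 3 other scalings.

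**Figure D4:**
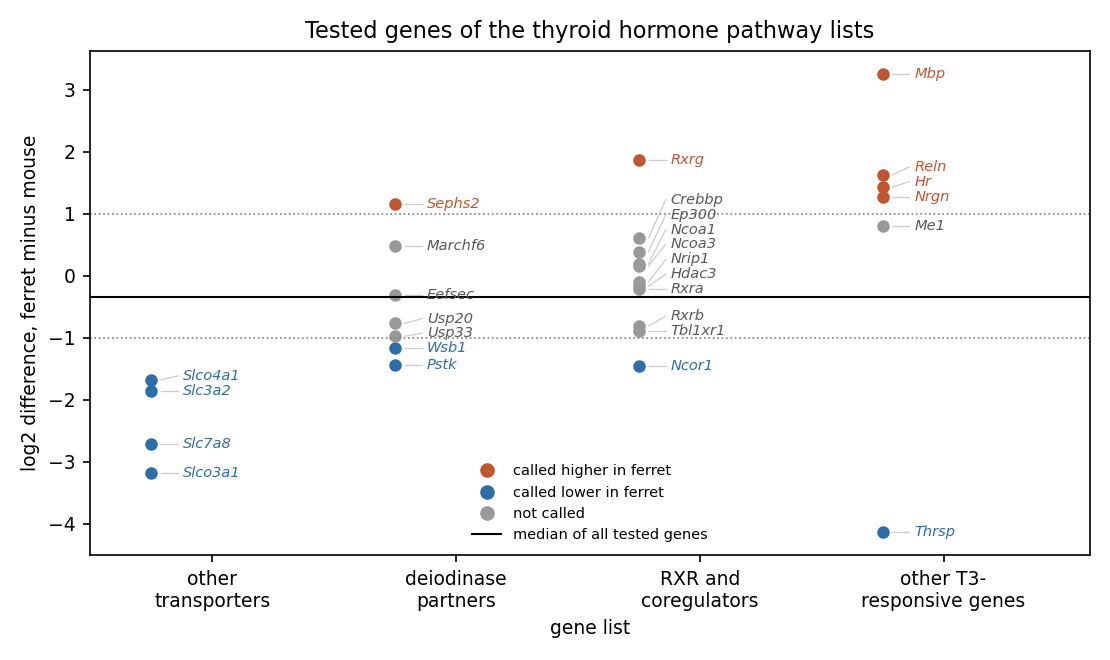
Log2 difference, ferret minus mouse, of each tested gene of the 4 pathway lists, coloured by its call, with a line at the median of all tested genes (−0.35) and dotted lines at −1 and 1. All 4 transporters lie at or below −1.68, the deiodinase partners and coregulators lie on both sides of the line, and the T3-responsive genes run from Thrsp at −4.14 to Mbp at 3.26.

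RNA of other cell types also differed between the cultures. Microglial markers summed to 3.31 to 3.64 FPKM in the ferret and 616 to 639 FPKM in the mouse libraries over 9 genes, and 8 of the 9 entered the test through their mouse values alone. Meningeal fibroblast markers summed to 111 to 125 FPKM and 1529 to 1553 FPKM over 8 genes. Of these, 7 were called lower and 0 higher, against 30.1% and 13.1% of all tested genes, and 3 had entered through the mouse alone. Pdgfra went the other way, at 3.07 and 3.23 FPKM in the ferret against 1.64 and 1.23 FPKM (log2 difference 0.77). With each of the 3 other scalings and with a pseudocount of 0.1, 1 of the fibroblast markers was called higher. Neuronal markers summed to 29.1 to 30.4 FPKM and 32.0 to 33.2 FPKM over 5 genes. Of 3 tested, 2 were called higher in the ferret and 0 lower, against 13.1% and 30.1% of all tested genes. Those 2 were Syt1 and Nefl, and Nefl had entered through the ferret alone. Map2 made up most of both sums, at 18.8 and 19.0 FPKM in the ferret against 30.4 and 31.3 FPKM. Stmn2 is outside these sums, since its ferret value was not analysed here. Its mouse level alone was 124 and 127 FPKM, so the sums do not show which species was higher over the full list. The part of these cell types in the differences of the thyroid hormone genes was not tested. Of genes of the thyroid gland itself, Tg, Pax8 and Duox2 were at most 0.106 FPKM in all 4 libraries, while Slc5a5, the iodide transporter, had 0.034 and 0.020 FPKM in the ferret and 0.947 and 0.932 FPKM in the mouse libraries. Tshr, the thyrotropin receptor, had 0.331 and 0.266 FPKM in the ferret and 2.43 and 2.60 FPKM in the mouse libraries.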

How the data were processed

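RNA-seq libraries of ferret (2) and mouse (2) astrocytes were analysed from one FPKM table per library. The authors aligned reads with STAR 2.7.0f to the Ensembl genome of each species (mouse GRCm38) and deposited FPKM from Cufflinks 2.2.1, normalized to mapped fragments and exon length. No read counts were used, so absolute depth was not determined and low values carry no counting interval. Symbols were matched without regard to case, and of several values for a symbol, that with the highest species mean was kept. Differences of log2(FPKM + 1), which understate the change of low genes, were tested with limma 3.58.1 (R 4.3.3, empirical Bayes with a trend) for genes with a mean of at least 1 FPKM in at least one species. Adjustment was by Benjamini-Hochberg over all tested genes. The fit was tested on simulated data. Ratios within libraries were compared with an exact permutation test. Tables and figures were made with Python 3.11.15.

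The 9 genes and all lists were chosen with earlier results of these data known. Named genes were the 9 genes, pathway genes called in the fit, Nr1d1, the 3 genes nearest to Slco1c1, and defining markers of other cell types listed at 0. Usp33, Tbl1xr1, Crebbp, Me1, Rxra, Rxrb, Dio1, Slc7a5, Gfap, Aqp4, Aldh1l1, Vim, Gja1, Slc1a3, S100b, Kcne2, Kcnj13, Tek, Kdr, Flt1, Tie1, Slc5a5, Kl, Clic6, Sostdc1, Cdh5, Pecam1, Pdgfra, Sox10, Olig1, Olig2, Cspg4, Cnp, Map2, Stmn2, Syt1, Nefl, Tg, Pax8, Duox2 and Tshr were named after their values were seen. Alternatives were a pseudocount of 0.1, no minimum FPKM, 3 other scalings, the replicate number as a block, summed values for repeated symbols, limma without the trend, and each library left out in turn. Replicate numbers are shared by the species in the labels only, since the animals differ. Mouse positions are from GENCODE M21 on GRCm38. A ferret genome and protein sequences were not used here. A few genes of the pathway and marker lists are not reported here and were left out of the counts.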

Additional observations from a re-analysis of the deposited data

How the results depend on the processing

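Over the 6 tested thyroid hormone genes, 67 of 72 values under the alternatives kept both direction and call. Some alternatives left the log2 differences of these genes unchanged, so that only their p could move. These were no minimum FPKM, the replicate block, summed values for repeated symbols, and limma without the trend. The count of genes called lower stayed at 5 except with quantile normalization, where it was 3, since Crym (−0.95) and Slc16a10 (−0.96) then missed the required size. Klf9 turned to 0.33 with the libraries rescaled to the mean sum, 0.34 with a sum of 1000000 and 0.33 with quantile normalization. With each library left out in turn, 5 genes stayed called lower and 0 higher, with Slco1c1 between −3.71 and −3.64, Thra between −2.65 and −2.52, Thrb between −1.50 and −1.35, Crym between −1.52 and −1.19, Slc16a10 between −1.40 and −1.11 and Klf9 between −0.06 and −0.03.

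The receptor ratio difference ranged from −1.22 to −1.09 with a library left out and was −0.81 with a pseudocount of 0.1, and the mouse Dio2 to Dio3 ratio from 0.57 to 0.88 on the log2(FPKM + 1) scale, against 1.27 with that pseudocount. Over all tested genes, those higher in the ferret rose from 1336 to 2197 with a sum of 1000000 and to 2080 with quantile normalization, which moved their share of all calls from 30.3% to 46.4% and 50.0%. Of 31 tested markers of other cell types, 5 were called higher in the ferret and 19 lower, against 13.1% and 30.1% of all tested genes. With a sum of 1000000, 8 were called higher and 19 lower. The cause of these shifts was not tested. Samples share only a replicate number. The deviations of same-numbered libraries had a correlation of 0.0099 over genes, and with the replicate number as a block 5 thyroid hormone genes were lower and no call among them changed, with 3072 genes lower and 1342 higher in all. Where a library was left out, the lone library of that species was assumed to vary like the other pair. Absolute depth was not determined here, which limits every value under 1 FPKM, among them Ttr, Dio3 and ferret Slc16a10.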
